A study of Rattus norvegicus with 8 samples.

Results

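The 10 genes described here are core parts of the Notch pathway in rat ovary: the receptors Notch1, Notch2, Notch3 and Notch4, the ligands Jag1, Jag2 and Dll4, and the target genes Hes1, Hey1 and Hey2. They were chosen by gene symbol as the array files give it, and all 10 were found, among 26204 gene names on the array. They are measured by 14 probes, since Notch1, Jag2, Dll4 and Hey2 have 2 probes each and the other 6 genes have 1. Ovary RNA of female rats was measured on 8 single-colour Agilent arrays, 4 labelled control and 4 labelled PMSG. PMSG stands for pregnant mare serum gonadotropin, which is used to start follicle growth in immature rats. Per the labels, rats of the PMSG group received an injection of 50 IU at 26 days of age, dissolved in albumin phosphate buffer (0.2 ml), and those of the control group received the same volume of buffer alone under the skin. Ovaries of both groups were collected 48 h later, at 28 days of age. Strain and genotype are not given in the sources used here, and the labels do not say whether an array holds RNA of a single animal or of a pool. The p-values therefore set a group difference against the spread between these 8 samples, which may not be the spread between animals.

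Notch receptors sit in the membrane of a cell and are activated by ligands of the Jagged and Delta-like families on a neighbouring cell. Binding leads to cleavage of the receptor by an ADAM protease and then by gamma-secretase, and the freed intracellular part joins the DNA-binding protein RBPJ in the nucleus to switch on genes such as those of the HES and HEY families, which encode transcriptional repressors. In the ovary the pathway is known for contacts between oocyte and granulosa cells (Jag1 and Notch2) and for blood vessel growth (Dll4 and Notch4 in endothelial cells, Notch3 in the mural cells around vessels). Whole ovary was measured, so fewer cells of a type and less RNA per cell cannot be told apart in any difference below.

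Levels are log2 signals minus the 75th percentile of the same array, so that 0 is the signal at that percentile, and a log2 difference of 1 is a 2-fold difference. Every direction is that of the sample titles, written as PMSG against control. The luteinising hormone receptor gene Lhcgr (log2 difference -1.93) and the steroid synthesis gene Star (-2.75), which gonadotropin is generally known to raise, were lower in arrays labelled PMSG, and Amh, which it is generally known to lower, was higher (3.03). The Star value is that of its brighter probe, where PMSG array 2 stood at 3.81 and the other PMSG arrays from 0.99 to 1.92. Its dimmer probe gave -2.05. Whether the labels of the groups are right was not tested, and if they were exchanged every direction given here would turn. Between 80.8% and 84.6% of probes were well above background per array. Arrays 1 to 4 labelled PMSG had 83.7%, 83.5%, 84.6% and 81.9%, and array 3 had the lowest 75th percentile, a signal of 769 against 983 to 1103 on the other 7 arrays. Over the 25303 tested probes the median log2 difference was 0.11, and it was 0.027 with quantile normalization and -0.054 with median centring, so differences near this size follow the scaling.

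Among the 10 genes, taking the brightest probe of each, Notch1 and Notch2 were higher and Notch4 was lower in arrays labelled PMSG (limma, adjusted p under 0.05), and the other 7 did not pass the test. A dimmer probe of Hey2 also passed and was higher. By probes this is 4 of 14, or 28.6%, against 34.2% of all tested probes, and by genes 3 of 10 against 34.5% of all gene names, so the share called is no higher than that of the array at large. Higher calls made up 17.6% and lower calls 16.6% of all tested probes. The median log2 difference over the 10 genes was 0.36, from -0.46 to 0.73, beside a median of 0.12 over all gene names with quartiles of -0.27 and 0.48. None of the 14 probes (0) reached a 2-fold difference, which 14.0% of all tested probes did. Groups did not overlap for 4 of the 14 probes, beside 36.6% of all.

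**Figure D1:**
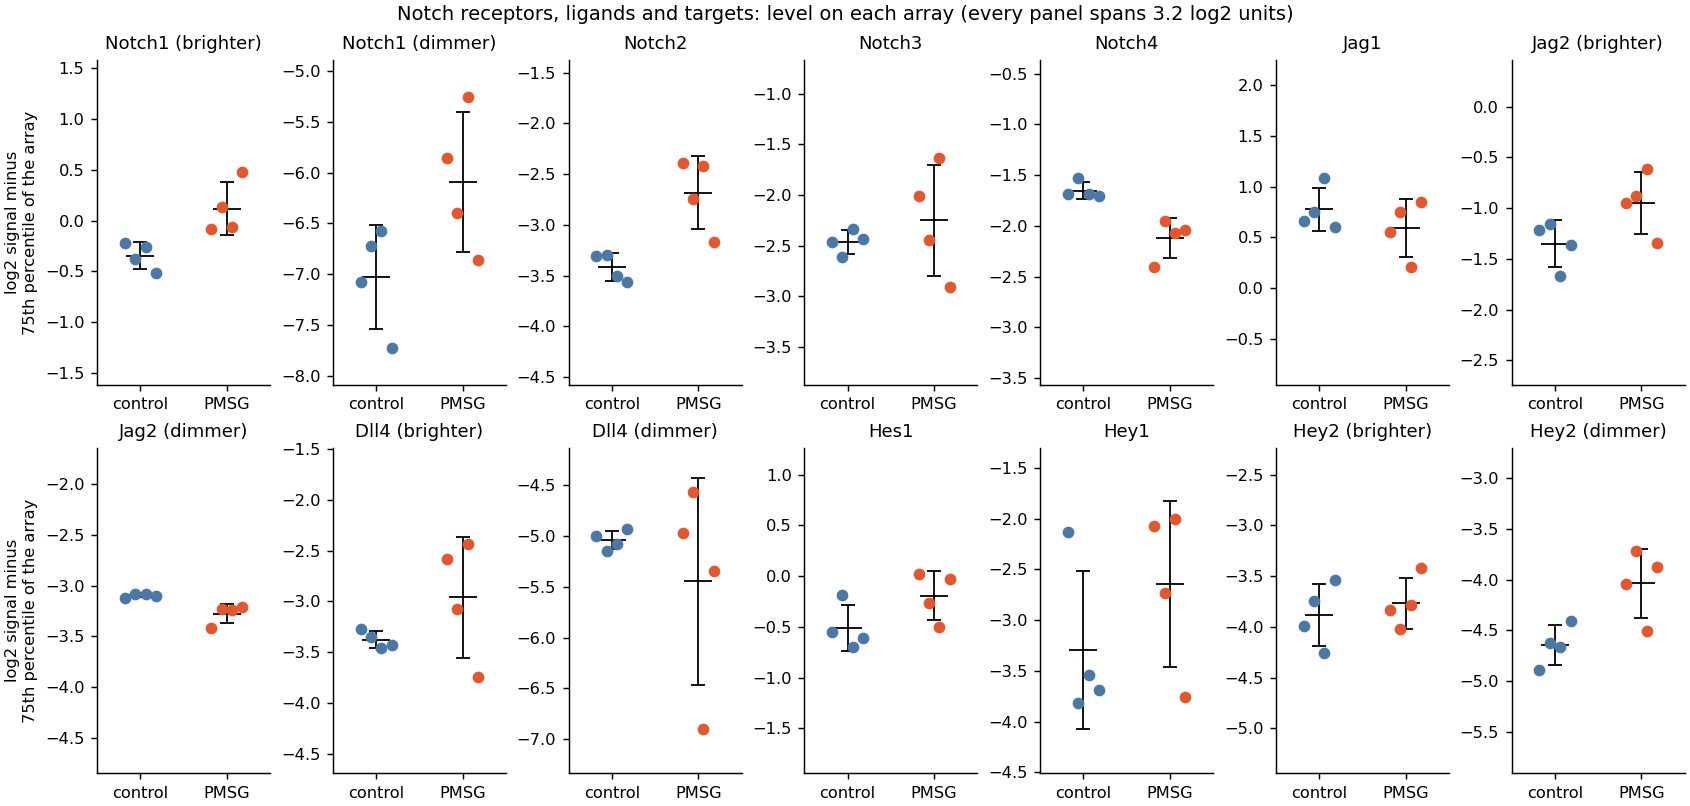
Level of each of the 14 probes on the 8 arrays, as log2 signal minus the 75th percentile of the array, with points for single arrays (arrays 1 to 4 from left to right), a dash for the group mean and bars for the SD (n = 4). Control points (blue) and PMSG points (orange) are separate for the brighter Notch1 probe, Notch2, Notch4 and the dimmer Jag2 probe, and overlap for the other 10 probes.

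Of the receptors, Notch2 and Notch1 were higher and Notch4 was lower. Notch2, the receptor found on granulosa cells of growing follicles, stood at -3.30, -3.30, -3.50 and -3.56 on control arrays 1 to 4 and at -2.39, -2.75, -2.42 and -3.17 on PMSG arrays 1 to 4. All 4 PMSG arrays lay above all 4 control arrays, and PMSG array 4 was nearest to them. The control mean was -3.42 ± 0.14 (SD, n = 4) and the PMSG mean -2.68 ± 0.36 (SD, n = 4), which is 0.73 higher on the log2 scale (limma, SE 0.18 and adjusted p = 0.0161) or 1.66-fold. The files place its probe at 192986490 to 192986549 of chromosome 2, in the rn4 build. The call held under each of 18 alternatives, with log2 differences from 0.50 to 0.90 and limma adjusted p-values up to 0.0484.

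Notch1, which is widely expressed and acts in endothelium among other cells, has a bright and a very dim probe. The brighter one (chromosome 3, 4631829 to 4631888) read -0.22, -0.38, -0.26 and -0.52 on the control arrays and -0.080, 0.14, -0.065 and 0.48 on the PMSG arrays. The groups were separate by a narrow gap, with control array 1 and PMSG array 1 closest. The log2 difference was 0.46 (limma, SE 0.15 and adjusted p = 0.0415), or 1.38-fold. This call was lost under 9 of 19 alternatives, among them median centring (log2 difference 0.30, limma adjusted p = 0.298) and leaving out any single control array (limma adjusted p from 0.0627 to 0.109) or PMSG array 2 (0.0837), in a range from 0.0194 to 0.298. The dimmer probe, 2293 bases away, was well above background on 1 of 4 control arrays and on all 4 PMSG arrays, with unscaled signals of 5.22 to 20.1. It read -7.08, -6.73, -6.58 and -7.72 on the control arrays and -5.86, -6.39, -5.26 and -6.86 on the PMSG arrays. Its means were -7.03 and -6.09, a log2 difference of 0.93 (95% interval 0.070 to 1.80) that did not pass (limma adjusted p = 0.0891), and its groups overlapped. With 3 of 4 control arrays not well above background this size is uncertain. With control arrays at no less than their detection limit the group means differed 1.32-fold, which is not a lower bound. With normexp correction the log2 difference was 0.26.

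Notch4, a receptor largely restricted to endothelial cells, went the other way. It stood at -1.68, -1.53, -1.69 and -1.70 on the control arrays and at -2.40, -1.95, -2.07 and -2.04 on the PMSG arrays, with no overlap and PMSG array 1 lowest. Its probe, spotted 10 times on each array (chromosome 20, 4263481 to 4263540), fell from a mean of -1.65 ± 0.082 (SD, n = 4) to a PMSG mean of -2.12 ± 0.20 (SD, n = 4). The log2 difference was -0.46 (limma, SE 0.12 and adjusted p = 0.0180), so that control was 1.38-fold higher. The call was lost without control array 2 (limma adjusted p = 0.0561) and held under the other 17 alternatives, with log2 differences from -0.63 to -0.36.

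Notch3, the receptor of pericytes and vascular smooth muscle, read -2.46, -2.61, -2.34 and -2.44 on the control arrays and -2.01, -2.44, -1.64 and -2.91 on the PMSG arrays. PMSG arrays 1 and 3 lay above every control array and PMSG array 4 below every one, so the spread between PMSG arrays (SD 0.55, n = 4) was far wider than between control arrays (SD 0.11, n = 4). The log2 difference of 0.21 (95% interval -0.36 to 0.79) did not pass (limma adjusted p = 0.526). It was 0.046 with median centring, and it was 0.13 without PMSG array 1, 0.0089 without PMSG array 3 and 0.43 without PMSG array 4.

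The receptors were also compared within arrays, where scaling between arrays cancels. The log2 ratio of Notch2 over Notch4 was higher by 1.20 in arrays labelled PMSG, and that of Notch1 over Notch4 by 0.93, both without overlap between groups (exact two-sided permutation test, p = 0.0286 each, the smallest that 4 against 4 arrays can give). After Benjamini-Hochberg adjustment over the 6 receptor pairs both stood at 0.0857, so neither passed. Notch2 over Notch3 was higher by 0.52 (exact permutation p = 0.0571). The ratio of Notch1 to Notch2 changed by -0.27 (exact permutation p = 0.400). These ratios were chosen after the values had been seen, and a ratio between probes shows unequal change, not which gene changed.

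**Figure D2:**
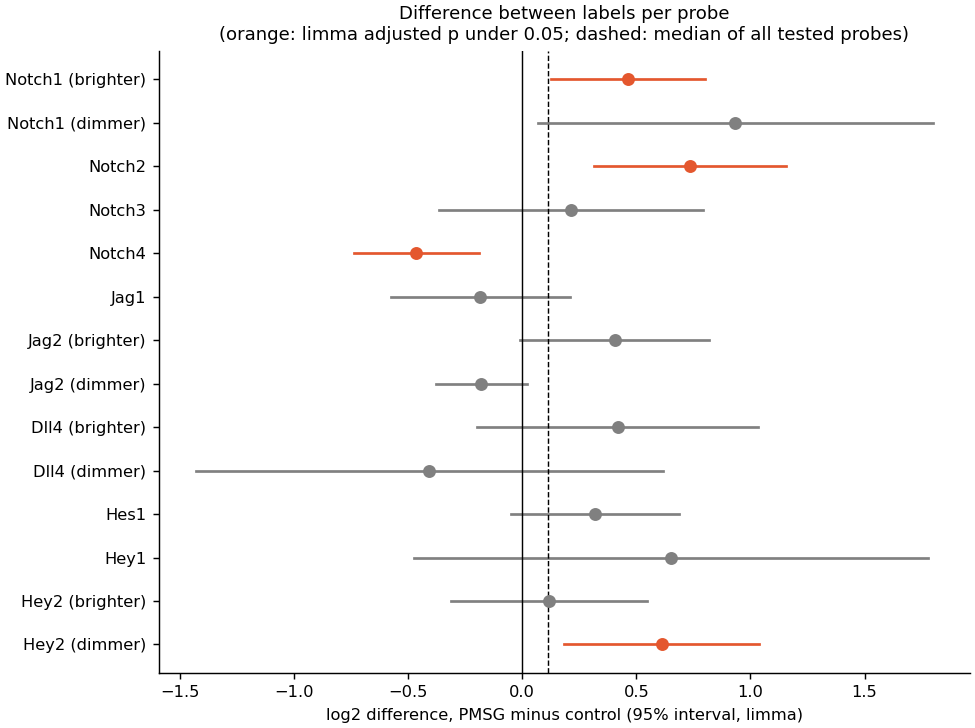
Log2 difference of each probe, PMSG minus control, with its 95% interval from limma, in orange where the adjusted p is under 0.05 and in grey otherwise. Notch2 (0.73), the dimmer Hey2 probe (0.61) and the brighter Notch1 probe (0.46) lie to the right of 0 and Notch4 (-0.46) to the left, and the dashed line marks the median of all tested probes (0.11).

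None of the ligands passed with either probe (0 of 3 genes, beside 34.5% of all gene names). So few genes give no result about ligands as a class. Jag1, the Jagged ligand made by oocytes and other ovarian cells, read 0.66, 0.75, 1.08 and 0.60 on the control arrays and 0.55, 0.75, 0.21 and 0.85 on the PMSG arrays. The groups overlapped across most of their range, and PMSG array 3 was lowest. Its log2 difference was -0.18 (95% interval -0.58 to 0.21, limma adjusted p = 0.419; chromosome 3, 125181316 to 125181375), which leaves a decrease of the size seen for Notch4 within the interval. It was -0.35 with median centring, -0.081 without control array 3 and -0.057 without PMSG array 3.

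Jag2, a Jagged ligand with the same receptors, has probes on chromosome 6 whose starts lie 315 bases apart and which pointed in opposite directions. The brighter one read -1.21, -1.16, -1.67 and -1.36 on the control arrays and -0.95, -0.88, -0.61 and -1.35 on the PMSG arrays. Of the PMSG arrays 1, 2 and 3 were above every control array and array 4 among them. Its log2 difference was 0.40 (95% interval -0.010 to 0.82, limma adjusted p = 0.118), and without PMSG array 4 it was 0.54 and passed (limma adjusted p = 0.0279, in a range up to 0.450 over 19 alternatives). It was 0.24 with median centring. The dimmer one read -3.12, -3.08, -3.08 and -3.10 on the control arrays and -3.41, -3.23, -3.24 and -3.21 on the PMSG arrays. These groups did not overlap, but the log2 difference of -0.18 (95% interval -0.38 to 0.019) did not pass (limma adjusted p = 0.142, exact permutation p = 0.0286), and it was -0.37 with quantile normalization, -0.35 with median centring and -0.069 with normexp correction. The within-array difference between both probes changed by 0.58, with overlap between groups (exact two-sided permutation test, p = 0.0857, and 0.171 after adjustment over the 4 genes with 2 probes).

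Dll4, the Delta-like ligand of endothelial tip cells, also gave unlike answers. Its brighter probe (chromosome 3, 105850302 to 105850361) read -3.27, -3.36, -3.46 and -3.43 on the control arrays and -2.58, -3.08, -2.43 and -3.75 on the PMSG arrays. PMSG array 4 was below all control arrays and the other 3 PMSG arrays were above them. The log2 difference of 0.42 (95% interval -0.20 to 1.04) did not pass (limma adjusted p = 0.253), whereas without PMSG array 4 it was 0.68 and passed (limma adjusted p = 0.0140, in a range up to 0.985 over 19 alternatives). It was 0.24 without PMSG array 3 and 0.25 with median centring. The dimmer probe, 4377 bases away, read -5.00, -5.14, -5.07 and -4.93 on the control arrays and -4.97, -4.57, -6.90 and -5.34 on the PMSG arrays, where array 3 was not well above background. Its log2 difference of -0.41 (95% interval -1.43 to 0.62, limma adjusted p = 0.494) turned to 0.077 without PMSG array 3, so its sign rested on that array.

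The target genes encode repressors that shut down other genes when Notch is active. Promoter windows of RefSeq (GRCr8 assembly, 250 bases before to 50 after the start of the gene) were given for 8 of the 10 genes. They were searched on both strands for TGGGAA, the core letters that RBPJ recognises, and for the longer form GTGGGAA, which contains it. TGGGAA was found for 4 of these 8 genes, Hes1, Hey2, Notch3 and Notch4, and in 25.7% of all 33469 windows. GTGGGAA was found for Hes1 and Hey2, 2 of 8, and in 6.29% of all windows. The N-box letters CACNAG, which HES proteins recognise, were found for 4 of 8 genes (Hes1, Notch1, Notch3 and Notch4) and in 43.1% of all windows. These shares are not like for like. The windows of the members held 57.3% to 84.7% G and C, beside a median of 51.7% over all windows. Members were counted by gene and the rest by window. A match of letters is a description of the sequence and not evidence of binding. The 250 bases before the start of both target genes are shown because these hold the longer form, each 5′ to 3′ on the strand of the gene, with every TGGGAA or its reverse complement in capitals. The Hes1 stretch is chr11:84213046-84213295 on the minus strand and that of Hey2 is chr1:28640850-28641099 on the plus strand.
Hes1: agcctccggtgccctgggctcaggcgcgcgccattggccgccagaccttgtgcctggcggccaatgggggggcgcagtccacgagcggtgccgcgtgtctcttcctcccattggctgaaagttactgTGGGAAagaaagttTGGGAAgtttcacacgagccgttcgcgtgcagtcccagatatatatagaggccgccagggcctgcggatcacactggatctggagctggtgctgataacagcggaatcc
Hey2: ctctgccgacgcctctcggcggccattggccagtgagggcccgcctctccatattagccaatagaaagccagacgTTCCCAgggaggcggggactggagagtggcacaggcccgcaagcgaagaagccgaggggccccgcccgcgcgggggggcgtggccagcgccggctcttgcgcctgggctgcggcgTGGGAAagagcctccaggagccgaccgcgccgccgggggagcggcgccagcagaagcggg
Counted from the start of the gene, Hes1 has matches at positions -123 and -109, both on its own strand, and Hey2 has matches at -175 on the reverse strand and at -60 on its own.

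Hes1, the pathway's most general target, read -0.55, -0.19, -0.70 and -0.61 on the control arrays and 0.024, -0.27, -0.50 and -0.030 on the PMSG arrays. PMSG arrays 1 and 4 were above all control arrays, and the others lay among them. The log2 difference of 0.32 (95% interval -0.050 to 0.69) did not pass (limma adjusted p = 0.158) and stayed positive but uncalled under all 18 alternatives, at 0.15 with median centring. The files give no genome position for this probe.

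Hey1, a HEY repressor active in vessels, varied widely in both groups. It read -2.13, -3.81, -3.54 and -3.69 on the control arrays and -2.07, -2.74, -2.0 and -3.76 on the PMSG arrays. Control array 1 was as high as PMSG arrays 1 and 3, and PMSG array 4 as low as the other control arrays. The log2 difference of 0.65 carried an SE of 0.49 (95% interval -0.47 to 1.78, limma adjusted p = 0.325; chromosome 2, 95175974 to 95176033), and it was 1.04 without control array 1 and 1.03 without PMSG array 4, neither of which passed.

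Hey2, its relative in vessels and heart, was read by 2 probes 1104 bases apart on chromosome 1. The dimmer one (27515068 to 27515127) read -4.89, -4.62, -4.66 and -4.41 on the control arrays and -4.04, -3.72, -4.51 and -3.87 on the PMSG arrays. Of the PMSG arrays 1, 2 and 4 were above all control arrays and array 3 was not. Its log2 difference of 0.61 (SE 0.19) passed (limma adjusted p = 0.0351), but the call was lost under 10 of 18 alternatives, among them quantile normalization (0.36, limma adjusted p = 0.338) and median centring (0.44, limma adjusted p = 0.191), and the exact permutation test of this probe alone gave p = 0.0571. Of the single arrays, leaving out control array 1, 2 or 3 or PMSG array 1, 2 or 4 also ended it (limma adjusted p from 0.0582 to 0.0903). The brighter probe read -3.99, -3.75, -4.26 and -3.54 on the control arrays and -3.83, -4.03, -3.78 and -3.42 on the PMSG arrays, with nearly complete overlap. Its log2 difference was 0.12 (95% interval -0.31 to 0.55, limma adjusted p = 0.639), and its sign turned under quantile normalization and median centring. The probes differed in response by 0.49 within arrays (exact two-sided permutation test, p = 0.0857, and 0.171 adjusted).

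An order among the arrays labelled PMSG was no more common in member probes than over all tested probes. In 5 of the 14 probes, those of Notch2, Notch3 and Hey1, the brighter Dll4 probe and the dimmer Notch1 probe, PMSG arrays 1 and 3 both lay above arrays 2 and 4. The same held for 38.3% of all tested probes, and for 50.3% of those below the median level, where these 5 probes fall, against 26.4% of those above it. The shares of probes well above background, given above, were also higher on PMSG arrays 3 and 1 than on arrays 2 and 4, though arrays 1 and 2 differed little (83.7% and 83.5%). Their part in the differences of the dim members was not tested. By Pearson correlation of levels over the 8 arrays, which includes the difference between groups, the genes most like Notch2 were Ndufa6 (r = 0.997), Lamp3 (0.993), RGD1559972 (0.989), RGD1563157 (0.989) and Rpl36a (0.988), among 22943 probes well above background on all arrays.

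**Figure D3:**
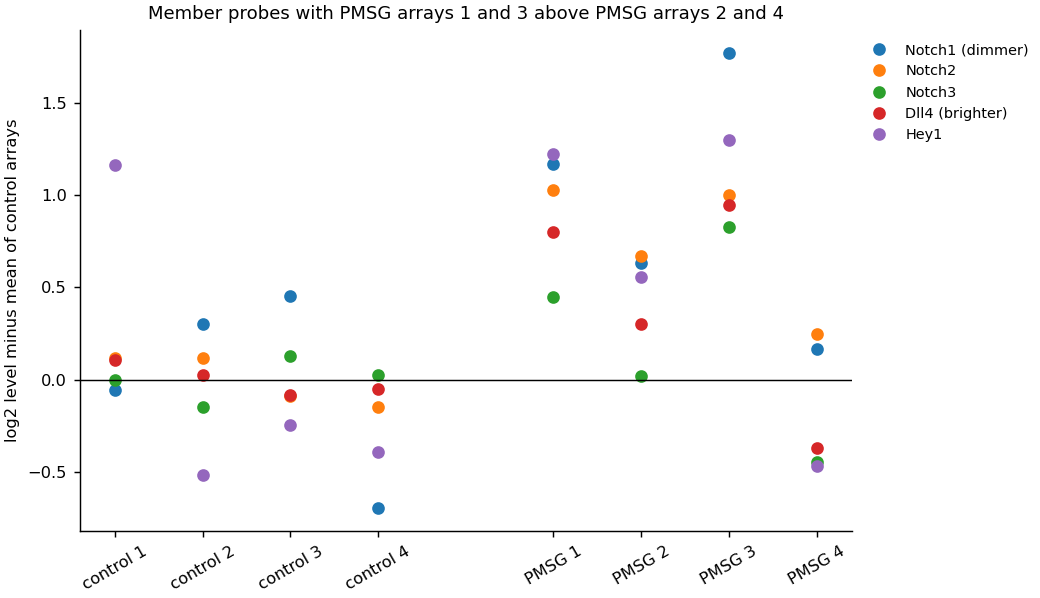
Level of 5 of the 14 member probes on each of the 8 arrays, as the log2 level minus the mean of the 4 control arrays. Only probes with PMSG arrays 1 and 3 above PMSG arrays 2 and 4 were drawn, so this order is fixed by the selection. Control array 1 stands high for Hey1 (-2.13, where the other control arrays ran from -3.81 to -3.54).

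Markers of ovarian cell types were read beside these values, as a count over each list and as the sum of its genes' linear signals, each divided by the 75th percentile of its array. A sum follows mostly the brightest genes of its list, such as Kdr for endothelium, Krt18 for epithelium, Cyp17a1 for theca and Hsd3b1 for luteal genes. Cyp17a1 and Hsd3b1 did not pass (log2 differences -0.22 and 0.066). The sums are therefore not levels of a cell type. Of 13 endothelial genes 5 were lower and 2 higher, with a median log2 difference of -0.43. Their sum ran from 25.4 to 31.6 on control arrays and from 25.4 to 26.8 on PMSG arrays. Tek, the angiopoietin receptor, had a log2 difference of -1.20 (limma adjusted p = 0.00345), which was -0.20 and did not pass with normexp correction (limma adjusted p = 0.175), and was well above background on 3 of 4 PMSG arrays, while the tight junction gene Cldn5 rose by 1.55. The part of this list in the difference of Notch4 was not tested. None of 9 pericyte and smooth muscle genes passed, the compartment of Notch3, with a median of -0.024 and sums from 44.4 to 70.9 and from 45.4 to 74.4.

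Counts for the lists of other cell types stand beside the same 34.5% of all gene names. All 9 oocyte genes were higher (median 1.94, with Zar1 and Zp2 rising by 2.18 and 2.17), and their sum ran from 3.01 to 5.39 on control arrays and from 10.4 to 22.6 on PMSG arrays. Of 5 leukocyte genes 4 were higher (median 0.64), Ptprc by 0.69 and Aif1 by 0.68, with sums of 6.98 to 8.71 and 11.1 to 12.5. Of 7 epithelial genes 4 were higher (median 0.68), among them Cdh16 by 2.51 and Muc1 by 3.04 (well above background on 3 of 4 control arrays, and 1.45 with normexp correction), with sums of 17.5 to 22.9 and 28.3 to 41.3. Of 4 theca genes 3 were higher (median 0.83), led by Insl3 at 2.60 and Gli1 at 0.87, with sums of 31.3 to 40.3 and 23.7 to 48.5. Of 7 granulosa genes tested 1 was higher, Amh, and 2 were lower, among them Nr5a2 at -1.47, with sums of 125.6 to 220.8 and 122.0 to 155.5. The aromatase gene Cyp19a1, also in that list and its sum, was well above background on 0 of 8 arrays. Of 6 luteal and steroidogenic genes 5 were lower (median -2.34), among them Cyp11a1 at -3.36, with sums of 269.9 to 304.0 and 118.1 to 177.7. Ptgfr, also lower, was well above background on 0 of 4 PMSG arrays. With these at no less than their detection limit its group means differed 3.14-fold (log2 difference -0.53 with normexp correction). The part of these cell types in the Notch differences was not tested.

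The wider pathway was read from a list of 52 genes, of which 45 were found and 43 tested. With the brightest probe of each, 7 were higher and 5 lower in arrays labelled PMSG (limma, adjusted p under 0.05) and 31 did not pass. That is 12 of 43, beside 34.5% of all gene names, with a median log2 difference of 0.0059. Dlk2, a ligand-like protein without the domain that activates Notch, had the largest difference. It ran from -4.22 to -3.69 on control arrays and from -2.21 to -1.10 on PMSG arrays, which is 2.45 higher (limma, SE 0.24 and adjusted p = 2.79e-04). The ligands Dll1 and Dll3 did not pass, with log2 differences of 0.69 and 0.32.

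Among genes that modify the receptor or its ligands, Mib2, a ubiquitin ligase that acts on ligands, rose by 0.54 (limma, SE 0.11 and adjusted p = 0.00788), a call lost with median centring (limma adjusted p = 0.121). Its relative Mib1 stood at -0.26 and did not pass. Poglut1, which adds glucose to the receptor's EGF repeats, fell by 1.21 (limma, SE 0.23 and adjusted p = 0.00485), and by 0.41 after normexp background correction. It ran from -4.28 to -3.59 on control arrays and from -5.62 to -4.64 on PMSG arrays. The fringe genes Lfng and Rfng did not pass, while Mfng, which tunes the choice between ligands, fell by 0.29 (limma adjusted p = 0.0437). Of 8 protease genes 1 passed, Psen2, a gamma-secretase subunit, which fell by 0.46 (limma, SE 0.12 and adjusted p = 0.0164), a call lost with the replicate block (limma adjusted p = 0.0612). The sheddases Adam10 (-0.067) and Adam17 (-0.017) did not pass.

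In the nucleus, the DNA-binding protein Rbpj (0.10) and the coactivator Maml1 (0.0059) did not pass, whereas the acetyltransferase gene Ep300 rose by 0.38 and the corepressor gene Tle1 by 0.51. The Deltex genes Dtx3 and Dtx2 rose by 0.88 (limma, SE 0.18 and adjusted p = 0.00738) and 0.61 (limma, SE 0.094 and adjusted p = 0.00176). Dtx3 missed the threshold with median centring (limma adjusted p = 0.0523). Nrarp, a feedback target of Notch, stood at 0.025 and did not pass.

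Among relatives of the targets, Hes6, an inhibitor of Hes1 protein, fell from between 3.30 and 3.93 on control arrays to between 2.0 and 2.58 on PMSG arrays, a log2 difference of -1.38 (limma, SE 0.19 and adjusted p = 0.00101). Bhlhe40, a related repressor known from the circadian clock, fell by 0.95 (limma, SE 0.26 and adjusted p = 0.0236), a call lost under 6 of 18 alternatives. Heyl (0.090) and Hes2 (0.19) did not pass, and Hes5, a direct Notch target in the nervous system, was well above background on 1 of 8 arrays and was not tested.

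**Figure D4:**
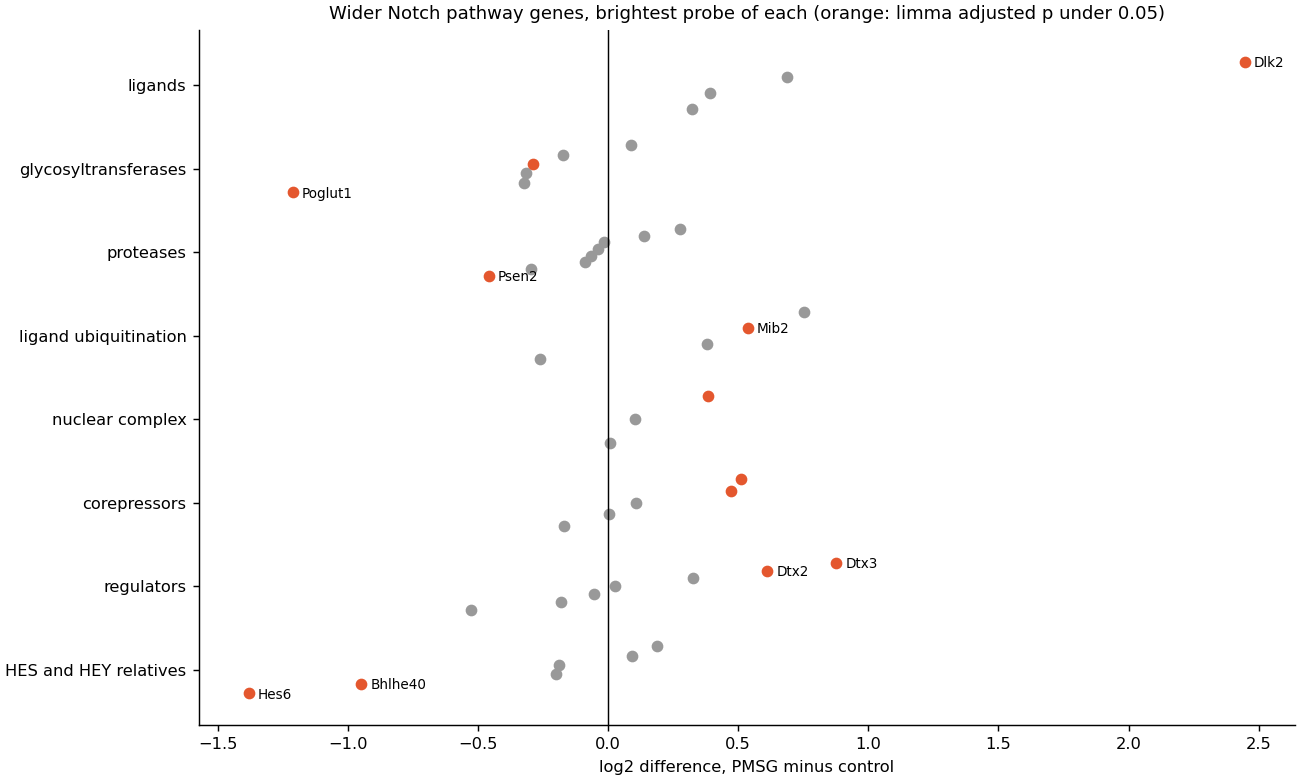
Log2 difference, PMSG minus control, of 43 further genes of the Notch pathway grouped by role, with 1 point per gene (its brightest probe), orange where the limma adjusted p is under 0.05 and grey otherwise, and named for the 4 largest called differences in each direction. Dlk2 stands farthest to the right at 2.45, and Hes6 (-1.38) and Poglut1 (-1.21) farthest to the left.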

How the data were processed

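Per the file headers, arrays of the 8 samples were read with Agilent Feature Extraction 11.5.1.1, which detrends the signal and puts surrogate values where a spot is too dim. Intensity per spot was taken from the deposited scanner files, with their calls of well above background and outliers; the authors also deposited log2 values per probe, which match log2 signals minus the 75th percentile of the array (each column correlated best with its own array; median difference per array up to 0.0147). Control and outlier spots were left out, log2 processed signals of a probe's spots were averaged, and the 75th percentile was subtracted. Of 30367 probes 17 lacked a usable spot on some array. Probes well above background on at least 4 of 8 arrays, 25303, were tested; a probe counted so where at least 0.5 of its spots did. No spot was saturated (0).

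The comparison used limma (version 3.58.1, R 4.3.3), no covariates, and Benjamini-Hochberg adjusted p-values across the 25303 probes (threshold 0.05). Single values were set beside exact permutation tests. A fold at the detection limit sets the bright group's mean against the dim group's, with each dim array at no less than the lowest signal well above background there. It is not a lower bound on the difference. Precision is limited by having 4 arrays in a group. Members, lists and tests were chosen with earlier results of these data known. Named genes are the members, the 4 wider pathway genes per direction and 2 genes per marker list with the largest called differences, and the 5 genes most like the member that differed most; Lhcgr, Star and other pathway genes given for contrast were added after their values were seen. The fit was also run on simulated data with independent noise and few changed probes, unlike these data. That run does not bear on the calls given here. Columns not used numbered 0. Deviations of arrays carrying the same replicate number had correlations across probes of 0.0444, 0.0361, 0.183 and -0.0192. Arrays of unlike number were not compared, so this cannot show whether the numbers pair the arrays. Alternatives were scaling, background correction, deposited values, filters, array weights, equal-variance tests, blocks, means over a gene's probes and leaving out each array.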

Additional observations from a re-analysis of the deposited data

Results flagged for a closer look

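Of 28 groups of 4 values, 3 had 1 array far from the rest, judged by its gap to the nearest other array over the range of the group. Chance alone does this in about 1 in 20 groups. For Notch4 in control arrays it was array 2 (gap 0.871 of the range), at -1.53 against -1.70 to -1.68, and leaving it out ended the Notch4 call (limma adjusted p = 0.0561). For the dimmer Jag2 probe in PMSG arrays it was array 1 (gap 0.852), at -3.41 against -3.24 to -3.21. For Hey1 in control arrays it was array 1 (gap 0.839), at -2.13 against -3.81 to -3.54, and Hey1 was not called with or without it.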

How the results depend on the processing

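The count of Notch probes past the threshold, 4, was 2 with median centring and lay between 1 and 6 with single arrays left out: 2 without control array 1, 1 without control array 2, 2 without control array 3, 2 without PMSG array 2 and 6 without PMSG array 4. The count over all probes, 8658, then lay between 6552 and 11382, and the wider pathway count, 12, between 9 and 14. With quantile normalization 18 wider pathway genes passed. The replicate block gave 4 Notch probes, 9 wider pathway genes and 7346 probes in all, and under it the brighter Notch1 probe missed the threshold and the dimmer one passed. Signs turned for the brighter Hey2 probe with quantile normalization (-0.11), median centring (-0.049) and after control array 3 was left out (-0.0051, with the other single arrays left out at most 0.23), and for the dimmer Dll4 probe with normexp correction (0.021) and without PMSG array 3 (0.077, in a range down to -0.70); the cause was not tested. With slide row of the array position as a block 3 Notch probes passed. Slide columns were not balanced: column 1 held PMSG arrays 1 and 2, and column 2 held control arrays 1 and 2. Column was not tested, and it is partly confounded with group. Within slide rows 1 and 2 (2 arrays against 2, chosen after seeing the data, no test) Notch2 differed by 0.85 and 0.62, Notch4 by -0.39 and -0.53, the brighter Notch1 probe by 0.48 and 0.44, Notch3 by 0.49 and -0.060, Hes1 by 0.016 and 0.62, the brighter Hey2 probe by -0.26 and 0.50, and Hey1 by 1.38 and -0.078. A single scan and slide held all arrays.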
